A study of Mus musculus with 8 samples.

Results

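Ifitm6 and its relatives Ifitm1, Ifitm2 and Ifitm3 were followed in mouse peritoneal macrophages cultured with or without histidine-rich glycoprotein (HRG), a multidomain plasma protein that binds heparan sulphate, haem and metal ions. The members were the array rows with a single gene symbol of this group, using for a gene with several rows the one of highest mean level, which gave 4 of 19938 genes tested. The groups were HRG at 24 h, basal at 24 h, HRG at 6 h and basal at 6 h, with 2 samples each, 1 array per sample. HRG samples received recombinant HRG at 1 µg/ml, and basal samples had the same culture without it. All samples came from 1 pool of lavage cells of 10 wild-type C57/Bl6 mice, which had been kept overnight in RPMI with foetal calf serum. The labels give no age, and no allele or agent other than HRG. Ifitm6 was singled out for its difference between HRG and basal samples at 24 h, so its values at 24 h are given as a description with no test, and so are all comparisons of Ifitm6 that use the 24 h arrays. Its 6 h arrays were not part of that choice, and the relatives were taken by name.

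The interferon-induced transmembrane proteins are small membrane proteins that sit in the plasma membrane and in endosomes and hinder the fusion of enveloped viruses with the membranes of the cell. Ifitm3 acts mainly in late endosomes and lysosomes, Ifitm2 also in endosomes, and Ifitm1 mainly at the cell surface. Ifitm6 is a mouse member with no direct human counterpart. Interferons raise several of these genes in many cell types through an interferon-stimulated response element (ISRE), and macrophages, as targets and carriers of viruses, hold high amounts of some of them without added interferon. In the mouse, these genes lie side by side on chromosome 7.

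The stretches around the start of transcription of Ifitm6, Ifitm3 and Ifitm2 are shown because the letters that interferon-responsive factors bind are laid out differently in them. Each holds 250 bases before the start and the first 30 after it, 5′ to 3′ on the strand of the gene, from RefSeq with build GRCm38.p6. Ifitm6 lies on the minus strand at chr7:141016863-141017142, Ifitm3 on the minus strand at chr7:141010715-141010994 and Ifitm2 on the minus strand at chr7:140955932-140956211. Capitals mark every match on either strand to the motifs named below.
Ifitm6: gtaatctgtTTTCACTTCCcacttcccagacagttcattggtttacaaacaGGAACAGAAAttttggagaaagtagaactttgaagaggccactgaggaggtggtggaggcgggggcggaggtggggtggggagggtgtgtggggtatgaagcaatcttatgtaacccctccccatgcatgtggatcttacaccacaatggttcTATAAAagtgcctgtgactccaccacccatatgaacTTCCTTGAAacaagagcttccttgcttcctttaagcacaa
Ifitm3: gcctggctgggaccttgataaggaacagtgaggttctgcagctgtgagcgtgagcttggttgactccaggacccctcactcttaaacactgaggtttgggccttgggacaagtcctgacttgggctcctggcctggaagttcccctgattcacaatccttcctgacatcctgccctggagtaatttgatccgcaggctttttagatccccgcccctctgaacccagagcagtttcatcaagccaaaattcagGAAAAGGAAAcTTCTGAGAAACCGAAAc
Ifitm2: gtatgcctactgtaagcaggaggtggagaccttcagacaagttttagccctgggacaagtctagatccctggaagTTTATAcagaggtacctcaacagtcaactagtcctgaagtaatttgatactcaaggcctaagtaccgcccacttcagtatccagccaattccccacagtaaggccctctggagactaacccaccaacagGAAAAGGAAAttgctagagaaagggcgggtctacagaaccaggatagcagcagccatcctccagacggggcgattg

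Both strands were searched for an ISRE core (2 copies of GAAA with 2 bases between them, in 3.28% of 32851 RefSeq promoters of the same length), a composite element of ETS and IRF factors (GGAA and then GAAA with 2 bases between them, 2.55%), a gamma-activated site (TTCNNNGAA, 7.83%), a C/EBP motif (TTGCNNAA, 10.4%) and a TATA box (TATAAA, 13.1%). Ifitm6 held 0 matches to the ISRE core. It held 2 to the ETS-IRF composite, 1 of them on the opposite strand, which begin 241 and 199 bases before the start, as well as 1 gamma-activated site that begins 10 bases before the start and a TATA box that begins 46 bases before it. Ifitm3 held 2 ISRE cores just after the start, the later of which overlaps a match to the gamma-activated site, and Ifitm2 held 1 ISRE core that begins 46 bases before the start and a TATA box match on the opposite strand. In Ifitm1, on the plus strand, this window held none of the 5 motifs. These matches describe the letters of the windows and say nothing of binding in these cells.

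Levels are the deposited log2 values, and levels of different genes are not set against each other because each comes from other probes. Ranges and differences of genes are set side by side, but whether their probes respond alike to a change in transcript was not tested. Over all rows, replicate arrays of a group correlated at r = 0.996 to 0.998 and array medians lay between 7.18 and 7.29. Markers of the labelled cell type were present: the mean log2 level of 12 large peritoneal macrophage markers was 10.50 to 10.85 over the arrays. Nothing states that the replicates came from separate cultures, so p-values reflect the spread between these samples alone, which may be technical. Precision is limited by the number of arrays. Differences are log2 values ± the standard error (SE) from limma, with 2 arrays in each group. The words "rose" and "fell" mean that a gene was past a Benjamini-Hochberg adjusted limma p of 0.05 over the 19938 genes. In a mixed population of cells, fewer cells of a type and less RNA per cell cannot be told apart.

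Ifitm6 had the widest range of the 4 genes over the arrays, 1.92 against 0.75 for Ifitm1, 0.66 for Ifitm3 and 0.64 for Ifitm2. Its level was 10.19 and 10.01 in 24 h HRG samples, 8.80 and 8.36 in 24 h basal samples, 8.27 and 8.54 in 6 h HRG samples and 9.01 and 9.03 in 6 h basal samples. Both 24 h HRG samples lay above all other samples, and both 6 h HRG samples lay below both 6 h basal samples. The order of the group means was HRG at 24 h (10.10 ± 0.13, SD, n = 2), basal at 6 h (9.02 ± 0.011), basal at 24 h (8.58 ± 0.32) and HRG at 6 h (8.41 ± 0.19), of which the last 2 neighbours overlapped.

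Ifitm3, the member best known for blocking influenza virus, had 13.28 and 13.29 in 24 h HRG samples, 13.06 and 12.69 in 24 h basal samples, 13.25 and 13.28 in 6 h HRG samples and 13.35 and 13.22 in 6 h basal samples. The 24 h basal samples were the lowest 2 of the 8, and the other 6 samples lay within 13.22 to 13.35, with overlap between their groups. Its group means in order were 13.29 ± 0.092 in 6 h basal samples, 13.28 ± 0.006 in 24 h HRG samples, 13.26 ± 0.021 in 6 h HRG samples and 12.88 ± 0.26 in 24 h basal samples.

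Ifitm2, the endosomal relative, had 13.15 and 13.18 in 24 h HRG samples, 12.90 and 12.65 in 24 h basal samples, 12.54 and 12.57 in 6 h HRG samples and 12.69 and 12.56 in 6 h basal samples. The 24 h HRG samples were the highest 2, and the other 3 groups overlapped in neighbouring pairs. The order of its means was HRG at 24 h (13.16 ± 0.018), basal at 24 h (12.78 ± 0.17), basal at 6 h (12.62 ± 0.093) and HRG at 6 h (12.55 ± 0.019).

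Ifitm1, the cell surface relative, had 8.21 and 8.14 in 24 h HRG samples, 7.66 and 7.56 in 24 h basal samples, 7.46 and 7.55 in 6 h HRG samples and 7.47 and 7.67 in 6 h basal samples. Here too the 24 h HRG samples stood above all others. Its means in order were 8.17 ± 0.053 in 24 h HRG samples, 7.61 ± 0.067 in 24 h basal samples, 7.57 ± 0.14 in 6 h basal samples and 7.51 ± 0.066 in 6 h HRG samples, and the lower 3 groups overlapped.

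**Figure D1:**
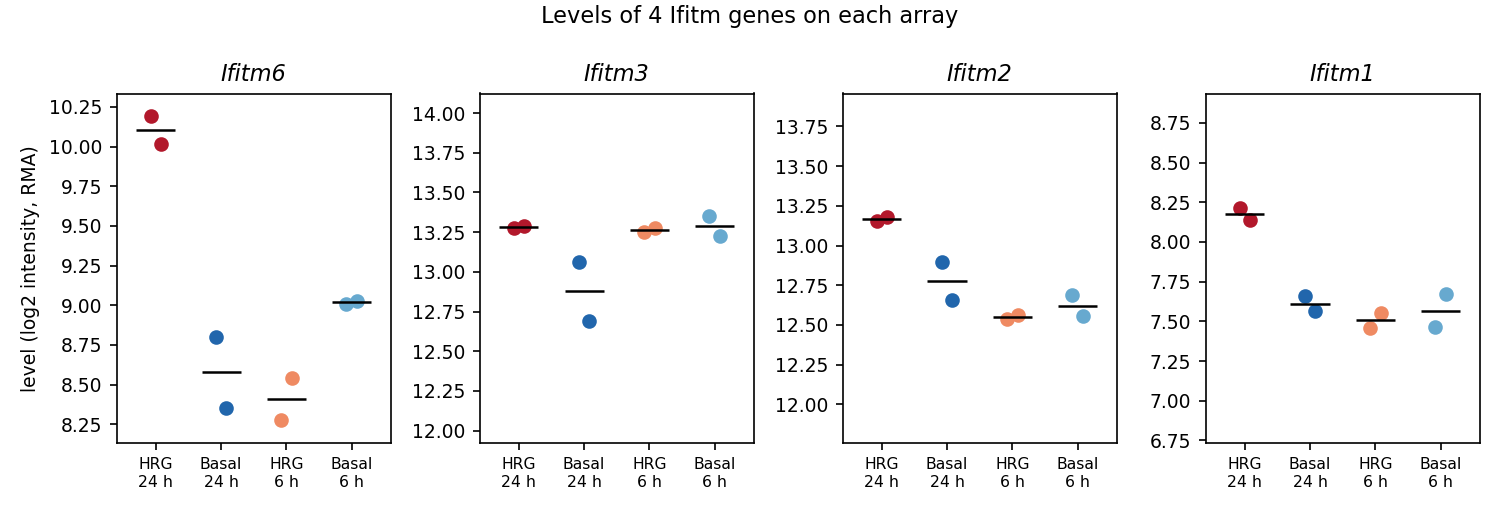
Log2 level of Ifitm6, Ifitm3, Ifitm2 and Ifitm1 (1 panel each, vertical axes of equal length) on every array of the 4 groups; points are arrays and bars are means of 2 arrays. The 24 h HRG samples stand highest for Ifitm6, Ifitm2 and Ifitm1, while for Ifitm3 the 24 h basal samples stand lowest.

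The comparison of HRG with basal samples at 24 h asked which transcripts had moved after a day with HRG. Ifitm6 was higher in HRG samples by 1.52 ± 0.14 (2.88-fold), rank 8 of the 19938 genes when ordered from the highest difference. This is the value it was chosen by. Among its relatives, Ifitm1 rose by 0.56 ± 0.10 (1.48-fold, limma adjusted p = 0.0088). Ifitm3 differed by 0.40 ± 0.12 (1.32-fold, limma adjusted p = 0.11) and Ifitm2 by 0.39 ± 0.10 (1.31-fold, limma adjusted p = 0.075), neither past the threshold. So 1 of the 3 relatives tested rose, where 2.43% of all genes rose and 1.05% fell. The groups did not overlap for any of the 4 genes, with both HRG samples the higher, as was so for 19.1% of all genes.

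Ifitm1 depended on single arrays: without replicate 2 of basal at 24 h its difference was 0.52 (limma adjusted p = 0.089), and without replicate 1 of HRG at 24 h it was 0.53 (limma adjusted p = 0.12). The 24 h basal samples were the least even group for Ifitm6, Ifitm3 and Ifitm2. Replicate 1 lay above replicate 2 for all 4 genes there. Without replicate 1 the 24 h differences of Ifitm3 and Ifitm2 were 0.59 (limma adjusted p = 0.019) and 0.51 (limma adjusted p = 0.040), past the threshold. Without replicate 2 they were 0.22 (limma adjusted p = 0.61) and 0.27 (limma adjusted p = 0.47).

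The comparison at 6 h put the same question to the early response. Ifitm6 differed by -0.61 ± 0.14 (1.52-fold lower with HRG, limma adjusted p = 0.077), which misses the threshold. Its groups did not overlap, with HRG the lower, as was so for 18.3% of all genes. Ifitm2 (-0.07 ± 0.10, limma adjusted p = 0.90), Ifitm1 (-0.06 ± 0.10, limma adjusted p = 0.91) and Ifitm3 (-0.03 ± 0.12, limma adjusted p = 0.97) had differences smaller than their errors, and their groups overlapped. In limma 0 of the 4 members was past the threshold (1 at an unadjusted p under 0.05, Ifitm6), against 1.25% of all genes. Without either 1 of the basal arrays at 24 h, which enter only through the shared estimate of the spread, the difference of Ifitm6 had a limma adjusted p of 0.028. Without replicate 1 of HRG at 6 h it was -0.47 (limma adjusted p = 0.43).

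**Figure D2:**
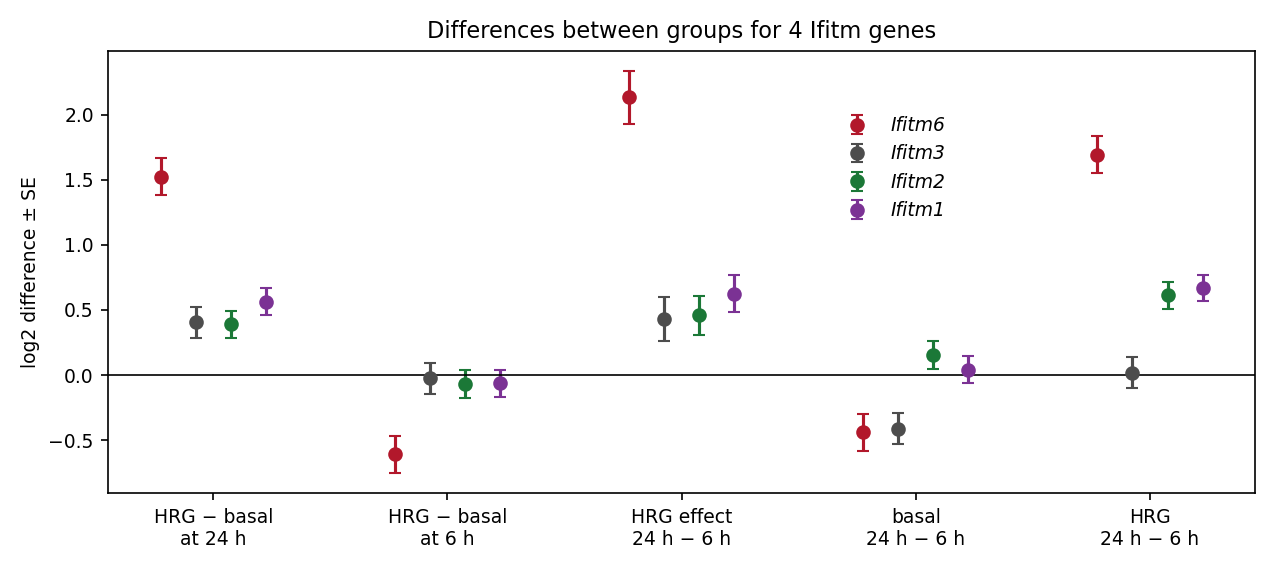
Log2 difference of each member in the 5 comparisons, with points for the estimate and bars of 1 SE from the limma fit on 8 arrays. For HRG against basal, Ifitm6 lies at 1.52 at 24 h and -0.61 at 6 h, and its relatives lie between 0.39 and 0.56 at 24 h and between -0.07 and -0.03 at 6 h.

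The HRG effect at 24 h minus that at 6 h, which asks how far the response changed with time, was 2.13 ± 0.20 for Ifitm6, rank 1 of the 19938 genes, again with no test because of how the gene was chosen. It was 0.63 ± 0.14 for Ifitm1 (limma adjusted p = 0.059), 0.46 ± 0.15 for Ifitm2 (limma adjusted p = 0.21) and 0.43 ± 0.17 for Ifitm3 (limma adjusted p = 0.34). In limma 0 of the 3 relatives passed the threshold (3 at an unadjusted p under 0.05), against 1.47% of all genes, and all had a positive sign.

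Culture time was read within each condition, and in HRG samples it runs together with the length of exposure to HRG. In HRG samples, 24 h against 6 h, Ifitm1 rose by 0.67 ± 0.10 (1.59-fold, limma adjusted p = 0.0018) and Ifitm2 by 0.61 ± 0.10 (1.53-fold, limma adjusted p = 0.0040), while Ifitm3 differed by 0.02 ± 0.12 (limma adjusted p = 0.97). Of the 3 relatives, 2 thus rose, where 4.41% of all genes did. Ifitm6 was higher at 24 h by 1.69 ± 0.14 (3.23-fold, rank 17, no test). In basal samples, 24 h against 6 h, Ifitm3 differed by -0.41 ± 0.12 (limma adjusted p = 0.051), Ifitm2 by 0.15 ± 0.10 (limma adjusted p = 0.48) and Ifitm1 by 0.04 ± 0.10 (limma adjusted p = 0.88). Of these 0 passed in limma (1 at an unadjusted p under 0.05, Ifitm3), against 9.28% of all genes. Ifitm6 differed by -0.44 ± 0.14 (no test), with -0.66 without replicate 1 and -0.22 without replicate 2 of basal at 24 h. The 2 time comparisons share no arrays with each other, but each shares its arrays with the HRG comparisons.

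The change of Ifitm6 minus that of each relative, taken array by array, put a size on the gap. Between HRG and basal samples at 24 h it was 1.12 against Ifitm3, 1.13 against Ifitm2 and 0.96 against Ifitm1, with no test. At 6 h it was -0.58 against Ifitm3, -0.54 against Ifitm2 and -0.55 against Ifitm1, and both HRG arrays lay below both basal arrays in each case. The exact two-sided permutation test gave p = 0.33 for each of these 3, which is the smallest p that 2 arrays against 2 allow. Set to 0 at the mean of the 6 h basal samples, Ifitm6 minus Ifitm3 was 1.19 and 1.00 in 24 h HRG samples, 0.01 and -0.07 in 24 h basal samples, -0.70 and -0.46 in 6 h HRG samples and -0.07 and 0.07 in 6 h basal samples. In basal samples, Ifitm6 and Ifitm3 kept nearly the same distance at both times, whereas Ifitm6 minus Ifitm2 was -0.59 and Ifitm6 minus Ifitm1 was -0.48 at 24 h against 6 h. The rows were read at unlike levels: 8.27 to 10.19 for Ifitm6, 12.69 to 13.35 for Ifitm3, 12.54 to 13.18 for Ifitm2 and 7.46 to 8.21 for Ifitm1. How far the gap reflects unequal response of the probes was not tested.

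Across the 8 arrays, which share 1 pool and fall into 4 groups, Ifitm6 had a Pearson r of 0.93 with Ifitm1, 0.88 with Ifitm2 and 0.44 with Ifitm3. Ifitm2 and Ifitm1 were at 0.91, and Ifitm3 was at 0.16 with Ifitm2 and 0.22 with Ifitm1. These describe the arrays and carry no test.

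Ifitm2 was represented by 3 rows and Ifitm1 by 2, which gave further readings of these genes. At 24 h the other rows of Ifitm2 differed between HRG and basal samples by 0.43 ± 0.11 (limma adjusted p = 0.063 over all rows with 1 symbol) and 0.64 ± 0.11 (limma adjusted p = 0.0068), and the other row of Ifitm1 by 0.67 ± 0.12 (limma adjusted p = 0.012). At 6 h these rows differed by -0.12, -0.06 and -0.02, in the same order. The rows of Ifitm2 therefore fell on both sides of the threshold at 24 h, with 1 of the 3 past it, and both rows of Ifitm1 were past it. The row used for Ifitm1 averaged 7.71 and its other row 6.28 over the 8 arrays, beside array medians of 7.18 to 7.29. Low levels limit what these rows of Ifitm1 can show. Ifitm3 and Ifitm6 had 1 row each. The sequences of these genes are close to each other, and how far a row also reads a relative was not tested.

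**Figure D3:**
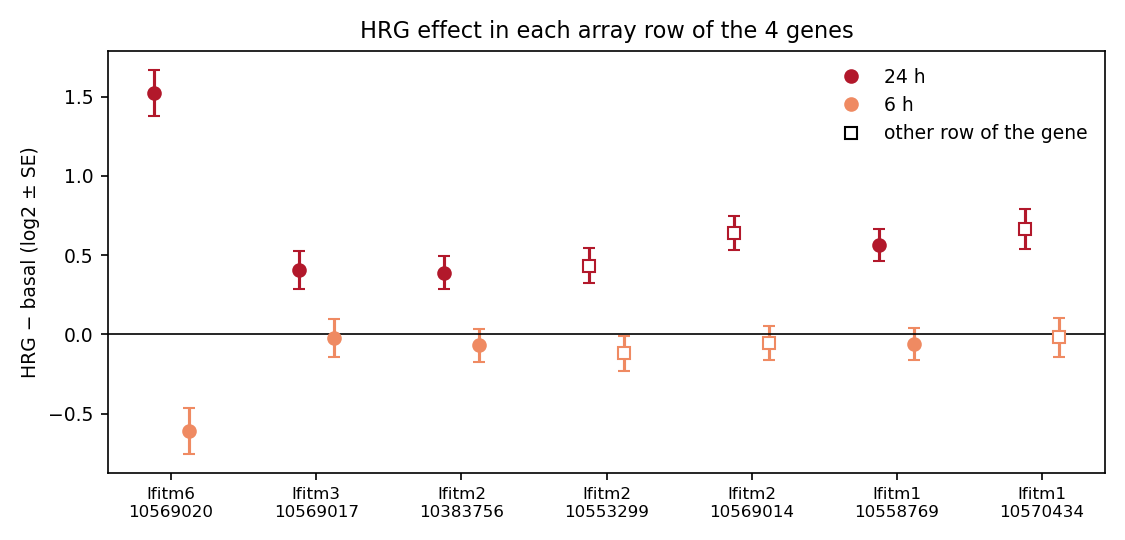
Log2 difference between HRG and basal samples at 24 h and at 6 h for each of the 7 array rows of the 4 genes, with bars of 1 SE from the limma fit on every row with 1 symbol. At 24 h the 3 rows of Ifitm2 lie between 0.39 and 0.64 and the 2 rows of Ifitm1 at 0.56 and 0.67, below the row of Ifitm6 at 1.52.

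Other members of the wider dispanin family, to which the IFITM proteins belong, held no calls. Of 10 listed, 8 were measured and 0 rose or fell in limma in any of the 5 comparisons (0 at an unadjusted p under 0.05), in which 1.25% to 9.28% of all genes did. Group means of the 8 lay between 6.61 (Trarg1, basal at 6 h) and 8.06 (Tmem91, basal at 24 h), beside array medians of 7.18 to 7.29. Low levels limit what these rows can show. Ifitm5, an osteoblast protein of bone mineralisation, differed by 0.10 at 24 h, the highest of the list there. Ifitm7, which lies on chromosome 16, differed by -0.05 and Ifitm10 by 0.03. The synaptic proteins Syndig1, Syndig1l and Prrt1, the fat cell trafficking protein Trarg1 and Tmem91 completed the list, with a lowest value of -0.09 (Tmem91). At 6 h the list ran between -0.03 and 0.25, where Trarg1 was the highest. The median of the list was -0.01 at 24 h and 0.07 at 6 h, beside -0.02 and 0.02 for all genes.

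On chromosome 7 the order of genes in the RefSeq table runs Ifitm5, Ifitm2, Ifitm1, Ifitm3, Ifitm6. The 5 genes on either side (Sirt3, Psmd13, Cox8b, Nlrp6 and Pgghg before Ifitm5, and B4galnt4, Pkp3, Sigirr, Ano9 and Ptdss2 after Ifitm6) gave 0 of 10 past the limma threshold in each of the 5 comparisons (at most 1 in a comparison at an unadjusted p under 0.05). Their differences between HRG and basal samples lay between -0.11 and 0.07 at 24 h and between -0.13 and 0.24 at 6 h. Over all genes, 1.25% to 9.28% passed in the 5 comparisons.

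Proteins that bind or modify the IFITM proteins were measured for 12 of 13 listed genes, among them palmitoyltransferases and a tetraspanin. At 24 h 0 of the 12 rose or fell in limma (1 at an unadjusted p under 0.05, median -0.03), where 2.43% of all genes rose and 1.05% fell. At 6 h 1 fell, the Src family kinase Fyn, which phosphorylates human IFITM3, by 0.49 on the log2 scale (SE 0.096, limma adjusted p = 0.032), where 0.818% of all genes fell, and the median was 0.01. This call was lost (0 of 12) without any 1 of the arrays at 6 h or of the HRG arrays at 24 h, 6 of the 8 arrays.

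The interferon system itself was read from 3 lists. The ligands (7 of 9 listed measured) had 0 genes past the limma threshold in all 5 comparisons (0 at an unadjusted p under 0.05), in which 1.25% to 9.28% of all genes were called. Their median differences between HRG and basal samples were -0.05 at 24 h and -0.03 at 6 h. The mean log2 level of this list was 6.44 to 6.62 over the arrays, below the array medians of 7.18 to 7.29, which limits what these rows can show. At 24 h 2.43% of all genes rose and 1.05% fell. Of receptors and signalling genes (15 of 16), 3 rose and 0 fell at that time. These were Irf7, the master factor of type I interferon genes (0.54 ± 0.12, limma adjusted p = 0.035), Irf1 (0.41 ± 0.10, limma adjusted p = 0.044) and Ifngr1, the ligand-binding chain of the receptor for interferon gamma (0.41 ± 0.090, limma adjusted p = 0.028). The median of this list was 0.19 at 24 h and -0.02 at 6 h, when 0 passed in limma (2 at an unadjusted p under 0.05), against 1.25% of all genes. At 24 h the 3 calls became 0 without replicate 2 of basal at 24 h, without either HRG array at 24 h or without either HRG array at 6 h, and 2 without replicate 1 of basal at 24 h.

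Of 29 measured interferon-stimulated genes (of 32), 6 rose and 0 fell at 24 h, where 2.43% of all genes rose and 1.05% fell. All 29 had a positive difference, with a median of 0.39. The largest rises were those of Mx1, a dynamin-like GTPase against viruses (0.84 ± 0.20, limma adjusted p = 0.042), Cmpk2, a mitochondrial nucleotide kinase (0.75 ± 0.15, limma adjusted p = 0.019), and Ifit2, an antiviral RNA-binding protein (0.74 ± 0.15, limma adjusted p = 0.015). The 24 h differences of Ifitm3 (0.40), Ifitm2 (0.39) and Ifitm1 (0.56) lay within the range of this list, 0.004 to 0.84. That of Ifitm6 (1.52) lay above the highest value of the list, but Ifitm6 was chosen by this value, so a high place follows from the choice. The top of the range also depends on which genes were listed. Slfn1 and Ifi27l2a, interferon-inducible genes outside the list that were picked for likeness to Ifitm3, differed by 1.22 and 0.97. At 6 h 0 of the 29 rose or fell in limma (6 at an unadjusted p under 0.05), against 1.25% of all genes. Of the 29, 27 were above 0 at 6 h and the median was 0.16, while Ifitm6 was at -0.61 and the lowest gene of the list at -0.008. The 6 calls at 24 h rested on single arrays: they numbered 18 without replicate 1 of basal at 24 h, 0 without replicate 2 of basal at 24 h, 0 without replicate 1 of HRG at 24 h and 2 without replicate 2 of HRG at 24 h.

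Many interferon-stimulated genes fell with culture time in both conditions. In HRG samples, 24 h against 6 h, 13 of the 29 fell and 0 rose (median -0.40), and in basal samples 21 fell and 0 rose (median -0.56), where 2.87% and 5.48% of all genes fell in these comparisons. The mean log2 level of the list was 10.36 to 10.44 in 24 h HRG samples, 9.78 to 10.17 in 24 h basal samples, 10.97 to 11.13 in 6 h HRG samples and 10.79 to 10.91 in 6 h basal samples. Ifitm6, Ifitm2 and Ifitm1 were highest in 24 h HRG samples, a group in which this list lay below its level at 6 h.

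**Figure D4:**
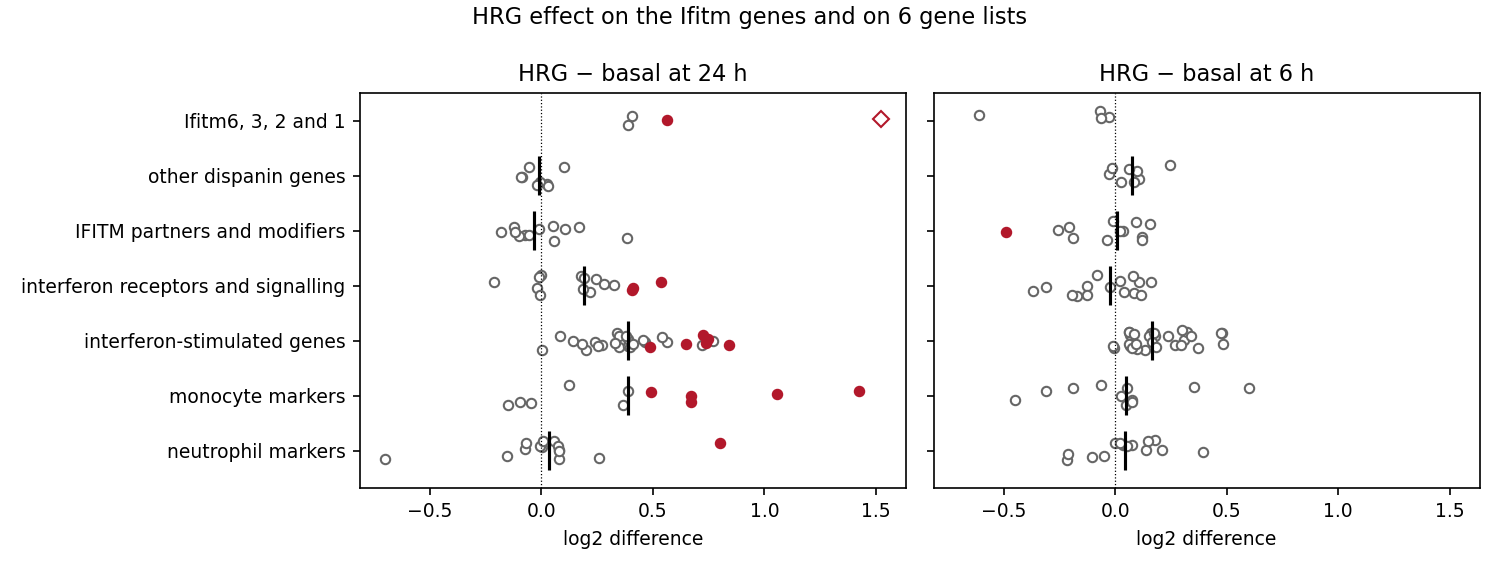
Log2 difference between HRG and basal samples at 24 h and at 6 h for single genes of the lists and for the 4 members; filled red points are past the limma threshold, diamonds are Ifitm6 at 24 h, which was not tested, and black bars are list medians. Ifitm6, chosen by its 24 h value, lies above all 29 interferon-stimulated genes of the list at 24 h (highest 0.84). At 6 h it lies below all 29 of them (lowest -0.008).

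Peritoneal lavage also yields cells other than macrophages, so marker lists were read beside Ifitm6, whose transcript is abundant in classical monocytes of the mouse. Of 11 measured monocyte markers (of 14), 5 rose and 0 fell at 24 h (median 0.39), where 2.43% of all genes rose and 1.05% fell. At that time 8 of the 11 were above 0 and 3 below. F13a1, the coagulation factor XIII A chain, rose by 1.42 ± 0.15 (limma adjusted p = 0.00030), Ms4a4c by 1.06 ± 0.16 (limma adjusted p = 0.0036) and Fn1, fibronectin, by 0.67 ± 0.10 (limma adjusted p = 0.0036). At 6 h 0 passed in limma (4 at an unadjusted p under 0.05), against 1.25% of all genes, and the median was 0.05. Of the 11, 7 were then above 0 and 4 below, from -0.45 (Vcan) to 0.60 (F13a1), while Ifitm6 was at -0.61. The mean log2 level of this list was 9.57 to 9.58 in 24 h HRG samples, 9.04 to 9.22 in 24 h basal samples, 9.35 to 9.37 in 6 h HRG samples and 9.31 to 9.38 in 6 h basal samples. The 5 calls became 1 without replicate 1 of HRG at 24 h and 3 without replicate 2 of basal at 24 h.

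The 9 measured B cell markers (of 11) differed in the same directions as Ifitm6 at both times. At 24 h 5 rose, where 2.43% of all genes did, all 9 were above 0 and the median was 0.49. The largest rises were those of Cd79a, a signalling chain of the B cell receptor (0.98 ± 0.16, limma adjusted p = 0.0045), the receptor for IgM Fcmr (0.81 ± 0.17, limma adjusted p = 0.018) and Ms4a1, the CD20 antigen (0.80 ± 0.15, limma adjusted p = 0.011). At 6 h 1 fell, Cd79b (-0.59 ± 0.12, limma adjusted p = 0.038), where 0.818% of all genes fell. All 9 were below 0 at 6 h and the median was -0.31. The list's mean log2 level was 8.56 to 8.85 in 24 h HRG samples, 7.92 to 8.30 in 24 h basal samples, 8.59 to 8.60 in 6 h HRG samples and 8.92 to 8.94 in 6 h basal samples. It was thus highest in 6 h basal samples, whereas Ifitm6 was highest in 24 h HRG samples. The 5 calls at 24 h became 1 without replicate 2 of basal at 24 h, 0 without replicate 1 of HRG at 24 h and 3 without either HRG array at 6 h. The 1 call at 6 h was lost without any 1 of the same 6 arrays as that of Fyn, and with renewed quantile normalization. The part of monocytes or B cells in the levels of Ifitm6 was not tested.

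The other marker lists held at most 2 calls each at 24 h and 1 at 6 h. Over all genes, 2.43% rose and 1.05% fell at 24 h, and 1.25% were called at 6 h. Of 14 measured neutrophil markers (of 15), 1 rose at 24 h, the gelatinase Mmp9 (0.80 ± 0.097, limma adjusted p = 0.00068), and 0 passed at 6 h (1 at an unadjusted p under 0.05). At 24 h 9 of the 14 were above 0 and 5 below (median 0.03), with S100a8 the lowest at -0.70. The mean log2 level of this list was 7.14 to 7.26 over the arrays, beside array medians of 7.18 to 7.29. That of T and NK cell markers was 6.56 to 7.04. Low levels limit what the rows of both lists can show. Of 12 large peritoneal macrophage markers (of 14), Vsig4, a complement receptor, rose at both times (2.10 ± 0.15 at 24 h, limma adjusted p = 4.5e-05, and 0.79 ± 0.15 at 6 h, limma adjusted p = 0.028), and Timd4, a receptor for phosphatidylserine, rose at 24 h (0.74 ± 0.11, limma adjusted p = 0.0031). At 24 h 8 of the 12 were above 0 and 4 below (median 0.08). Of 9 T and NK cell markers (of 11), 0 passed at 24 h (2 at an unadjusted p under 0.05). Most went in the same directions as the B cell markers: 6 were above 0 and 3 below at 24 h (median 0.25), and 2 above and 7 below at 6 h (median -0.28). Cd3g, a chain of the T cell receptor complex, fell at 6 h by 1.11 on the log2 scale (SE 0.21, limma adjusted p = 0.029). Of 10 dendritic cell markers, the integrin Itgax rose at 24 h (1.00 ± 0.11, limma adjusted p = 0.00039) and the chemokine receptor Ccr7 fell at 6 h (-0.54 ± 0.11, limma adjusted p = 0.038). Of these 10, 5 were above 0 and 5 below at 24 h (median 0.06), and 4 above and 6 below at 6 h. Of 10 mast cell and eosinophil markers, the mast cell proteases Cpa3 (0.97 ± 0.18, limma adjusted p = 0.0096) and Mcpt4 (0.66 ± 0.14, limma adjusted p = 0.023) rose at 24 h and 0 passed at 6 h (0 at an unadjusted p under 0.05). At 24 h 7 of the 10 were above 0 and 3 below (median 0.22). Of 15 markers of fibroblasts, mesothelium and endothelium, 0 passed at either time (5 at 24 h and 2 at 6 h at an unadjusted p under 0.05). At 6 h the calls of these lists were lost (0 left) without any 1 of the 6 arrays named for Fyn for T and NK cell and dendritic cell markers, and without replicate 2 of either group at 6 h or either HRG array at 24 h for Vsig4. Without either basal array at 24 h, 2 T and NK cell markers passed at 6 h. At 24 h the 2 mast cell calls became 0 without replicate 1 of basal or of HRG at 24 h, and the 2 macrophage calls became 1 without replicate 1 of HRG at 24 h. Without replicate 1 of basal at 24 h, 2 T and NK cell markers and 2 neutrophil markers passed at 24 h, and 3 dendritic cell markers did without replicate 2 of HRG at 24 h, or 2 without either basal array at 6 h.

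The genes whose levels ran most like those of Ifitm6 were taken by Pearson r over the 8 arrays, among 762 genes with a range of at least 1 on the log2 scale. They were St6gal1, a sialyltransferase (r = 0.96), Fabp5, a fatty acid binding protein (r = 0.96), Slc9a9, an endosomal sodium-proton exchanger (r = 0.93), and the paired membrane proteins Tmem176b and Tmem176a (r = 0.92 each). Between HRG and basal samples these 5 differed by 0.69 (St6gal1) to 1.25 (Tmem176a) at 24 h and by -0.41 (St6gal1) to -0.03 at 6 h. Because the 5 were picked on the same arrays, their positive differences at 24 h follow from that choice. St6gal1 and Ifitm6 were the 2 of these 6 genes with the lowest values at 6 h, -0.41 and -0.61. Without the minimum on range, 0 of these 5 stayed among the 5 most alike by Pearson r, which were Mcm10, Rassf5, Top2a, P2rx4 and Btbd1. A distance between levels centred on the mean of each gene was also taken without the minimum. By it Slc9a9, Fabp5, Tmem176b and Tmem176a stayed among the 5 most alike, and St6gal1 did not. The minimum also left out the relatives, whose ranges were 0.64 to 0.75. Of these, Ifitm1 was at r = 0.93 with Ifitm6, above Tmem176b and Tmem176a.

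The same search for each relative gave a partly different set of genes. Ifitm1 ran most like Rasgrp4, a Ras activator of mast and myeloid cells (r = 0.99), Slc9a9 (r = 0.98) and Tmem176b (r = 0.96), of which the last 2 also stood beside Ifitm6. Ifitm2 ran most like the guanine deaminase Gda (r = 0.98), the growth factor Hgf (r = 0.98) and the transcription factor Nfil3 (r = 0.97). Ifitm3 ran most like Ifi203 (r = 0.98), Slfn1 (r = 0.97) and Ifi27l2a (r = 0.96), all of which are interferon-inducible genes in the mouse. Levels of these 3, as of Ifitm3, were lowest in 24 h basal samples, which follows from picking them by likeness to Ifitm3. Slfn1 averaged 11.21 in 24 h HRG samples, 9.99 in 24 h basal samples, 11.49 in 6 h HRG samples and 11.49 in 6 h basal samples. Without the minimum on range, the 3 most alike were Card9, Stx7 and Cd164 for Ifitm2, and Rasgrp4, Igfbp4 and Copz2 for Ifitm1. For Ifitm3 they were Ifi203, Slfn1 and Rtp4.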

How the data were processed

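Transcript levels were measured on Affymetrix arrays in 8 samples of peritoneal macrophages, with 250 ng of RNA each. The authors deposited log2 values made with RMA in Expression Console, per the submitters' processing notes, which also name limma; versions and the genome build were not given in the sources used here. Of 28853 rows, 21789 had 1 gene symbol, 1621 several and 5443 none. Rows with 1 symbol were kept, with the highest-mean row per gene. The 4 group means were estimated from all 8 arrays together with limma 3.58.1 in R 4.3.3 (4 residual and 7.81 prior degrees of freedom), and tests were two-sided. The fit was tested on simulated data.

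The members, the 13 lists (161 of 180 entries measured) and the alternatives were chosen with earlier results of these data known. Named genes were the members, up to 3 genes past the threshold per list, every other dispanin gene, and the 5 genes (3 for each relative) most alike by Pearson r. Flanking genes were named by position, and S100a8 (24 h) and Vcan (6 h) as the lowest of their lists. Replicate numbers were not taken to pair the samples. Deviations of same-numbered arrays correlated at 0.24 to 0.41 among HRG at 24 h, HRG at 6 h and basal at 6 h. Between basal at 24 h and each of these groups they correlated at -0.33 to -0.20. The alternatives were a repeated quantile normalization, median centring, a trended and robust eBayes, the replicate block, a lower-quartile covariate, averaged rows, a filter on the dimmest 30% of genes, a fit on the compared arrays alone, and each array left out.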

Additional observations from a re-analysis of the deposited data

Results flagged for a closer look

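Ifitm6 is marked for a closer look because its HRG effect, a difference of group means, had opposite signs at the 2 times. It was 1.52 ± 0.14 at 24 h and -0.61 ± 0.14 at 6 h on the log2 scale (SE, n = 2 arrays per group), a difference of 2.13. Both HRG samples lay above both basal samples at 24 h, as for 19.1% of all genes, and below both at 6 h, as for 18.3%. The 6 h effect did not pass (limma adjusted p = 0.077, and 0.43 without replicate 1 of HRG at 6 h). The difference was not tested, because the gene was chosen by its 24 h value.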

How the results depend on the processing

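For HRG against basal at 6 h 249 genes passed the threshold, with 492 by eBayes with trend and robust, 488 with the lower quartile as a covariate and 155 from only the 4 arrays compared. For the HRG effect at 24 h minus 6 h it was 294, and 547 and 481 with the first 2 of these. For 24 h against 6 h in HRG samples it was 1452, and 2459 with the lower quartile. Ifitm3 at 24 h passed with trend and robust (0.40, limma adjusted p = 0.016). Ifitm2 at 24 h passed with trend and robust (0.39, limma adjusted p = 0.0055), quantile normalization (0.38, 0.049), the filter on dim genes (0.39, 0.0496), averaged rows (0.49, 0.020) and the lower quartile (0.39, 0.047). Ifitm6 at 6 h passed with trend and robust (-0.61, limma adjusted p = 0.023), median centring (-0.61, 0.033) and the lower quartile (-0.63, 0.043). In the difference of the HRG effects, Ifitm2 passed with trend and robust (0.46, limma adjusted p = 0.032), and Ifitm1 with trend and robust (0.63, 0.047), quantile normalization (0.62, 0.029), median centring (0.63, 0.034), the filter on dim genes (0.63, 0.040) and the lower quartile (0.69, 0.019). Ifitm3 in basal samples, 24 h against 6 h, passed with trend and robust (-0.41, limma adjusted p = 0.0070), quantile normalization (-0.43, 0.037), median centring (-0.42, 0.037), the filter on dim genes (-0.41, 0.036), the lower quartile (-0.42, 0.040) and the replicate block (-0.41, 0.043). Ifitm1 in that comparison reversed with averaged rows (-0.042, limma adjusted p = 0.88). The cause was not tested. With the replicate number as a block, a number the samples only share, counts were 725 at 24 h, 242 at 6 h, 362 for the difference of effects, 1860 in basal and 1452 in HRG samples over time, and no other call on a member changed. Of the lists at 24 h, 6 receptor and signalling genes passed with trend and robust and 1 with quantile normalization (3 as reported), and 13 interferon-stimulated genes (6 as reported), 4 large peritoneal macrophage markers (2), 4 mast cell and eosinophil markers (2) and 2 dendritic cell markers (1) passed with trend and robust. With the lower quartile as a covariate, 4 markers of fibroblasts, mesothelium and endothelium (0 as reported) passed at 24 h. At 6 h 3 monocyte markers (0 as reported) passed with trend and robust, and the single calls among partners, large peritoneal macrophage and dendritic cell markers became 0 in the fit on only the 4 arrays compared.

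Leaving out each array in turn gave counts of 182 to 781 at 24 h, 21 to 287 at 6 h, 56 to 404 for the difference of effects, 1124 to 1817 in basal and 529 to 1680 in HRG samples over time. Differences at 24 h were 1.30 to 1.75 for Ifitm6, 0.52 to 0.61 for Ifitm1, 0.22 to 0.59 for Ifitm3 and 0.27 to 0.51 for Ifitm2. At 6 h they were -0.74 to -0.47 for Ifitm6, -0.16 to 0.039 for Ifitm1 and -0.091 to 0.040 for Ifitm3. The difference of effects was 1.91 to 2.36 for Ifitm6 and 0.52 to 0.73 for Ifitm1. In basal samples over time, Ifitm6 was at -0.66 to -0.22, Ifitm3 was at -0.60 to -0.23 (without replicate 1 of basal at 24 h, limma adjusted p = 0.011) and Ifitm1 at -0.059 to 0.14.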
